A study of Mus musculus with 9 samples.

Results

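Haematopoietic stem cells (HSCs) of old mice were compared with HSCs of young mice across all genes, using 6 of the 9 libraries of the series, 3 of each age. The members were chosen by their sample labels and not by any measured value. All mice were wild type, and bone marrow came from femora and tibiae. Ages were given as 2 to 4 months or 20 to 24 months, which the wording of the group names assigns to young and old. Each library was made from RNA of 1500 sorted cells, amplified as cDNA with 12 cycles of PCR (low-input RNA-seq). The remaining 3 libraries, from old HSCs with the sphingosine kinase 2 inhibitor ABC294640, entered the model fit and are not described. The sources used here do not give the sort markers or the donors' sex. No label says that the libraries of an age are from different animals, and p-values then measure only the spread between these libraries, which may be technical. Genes on the X and Y chromosomes were left out of every count and list below.

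HSCs renew themselves and give rise to every blood lineage. With age the stem cell pool is known to expand, to lose output per cell, and to shift toward myeloid and platelet fates at the cost of lymphoid ones. Most stem cells are quiescent and keep protein synthesis and the load on their endoplasmic reticulum (ER) low. The ER is the compartment where membrane and secreted proteins are folded, disulfide bonded and glycosylated before vesicles carry them to the Golgi. When unfolded proteins build up there, the unfolded protein response raises the genes for chaperones and for the transport machinery, in part through the transcription factors ATF6 and XBP1.

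Levels are CPM (counts scaled to a fixed library total) with library sizes scaled by TMM, given for each library or as mean ± SD (n = 3). Log2 fold changes are old minus young, with their standard error, and each adjusted p is that of edgeR's quasi-likelihood test, adjusted by Benjamini-Hochberg over all 14227 genes tested. A gene is called where that value is below 0.05, and rose, fell, higher and lower are used of called genes. Of the 13686 tested genes outside the X and Y chromosomes, 39.2% were called, 19.8% as higher in old HSC and 19.4% as lower, and in 48.2% the 2 ages did not overlap. The median log2 fold change of called genes was 0.42 in size, and 1082 of them changed by 1 or more. Against a minimum fold of 1.2, edgeR's test called 866 genes higher and 1253 lower, and DESeq2 called 1726 genes lower in place of 2657. The median of all 13686 genes was -0.03. These shares changed with a gene's level, so counts of list members are to be read against the shares at the same levels, given below for many lists.

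Library totals ran from 16724971 to 23254115 counts, and 20158 to 20285 genes were detected in the young libraries against 18227 to 19182 in the old ones. Of 11 tested genes on Y, 9 were higher in old HSC, so age cannot be told apart from the donors' apparent sex. Markers of other blood cells moved with age too. The summed level of 35 granulocyte markers was 40100 to 44600 CPM in the young and 60500 to 64100 CPM in the old libraries, that of 21 B cell and plasma cell markers 433 to 484 CPM in the young and 743 to 831 CPM in the old libraries, and that of 30 erythroid markers 2300 to 2320 CPM in the young and 1380 to 1410 CPM in the old libraries. Of the B cell and plasma cell markers, 4 were higher (among them Igkc, Iglc2 and Jchain, of antibody-secreting cells) and 6 lower, with a median log2 fold change of -0.40, and Igkc, an antibody light chain gene, went from 165 ± 11.7 to 533 ± 46 CPM. Per kilobase of transcript, the HSC markers Procr and Slamf1 stood at 1.45 to 2.55 and 1.4 to 1.95 CPM over the 6 libraries and the progenitor receptor gene Kit at 21.3 to 23.6 CPM, whereas the granule protein gene Mpo stood at 3960 to 6190 CPM. Defining markers of HSCs were thus detected in every library but at low levels beside genes of granulocyte and monocyte progenitors, and "HSC" below means the cells so labelled. Fewer cells of a type and less RNA per cell cannot be told apart in such bulk samples.

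Change followed level across genes. In the lowest quintile of 13315 protein-coding genes by level (0.269 to 1.98 CPM) the median log2 fold change was -0.54, with 2.18% higher and 28.4% lower. In the highest quintile (from 60.0 CPM) it was 0.10, with 43.0% higher and 13.8% lower. Spearman's rho between level and log2 fold change was 0.45 across these genes, which are not independent replicates, and 0.252 with only genes at 5 CPM or more in 3 libraries. The running median of all genes at the same levels, called the trend, and the percent higher and lower among protein-coding genes of the same level quintiles, called the level shares, are therefore given beside many lists. For example, the 14 tested Hox genes had a median of -0.39 and the trend at their levels was -0.37, and for 27 stromal and endothelial markers the values were -0.38 and -0.23. The Hox median lay close to the trend, and the stromal median lay below it.

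**Figure D1:**
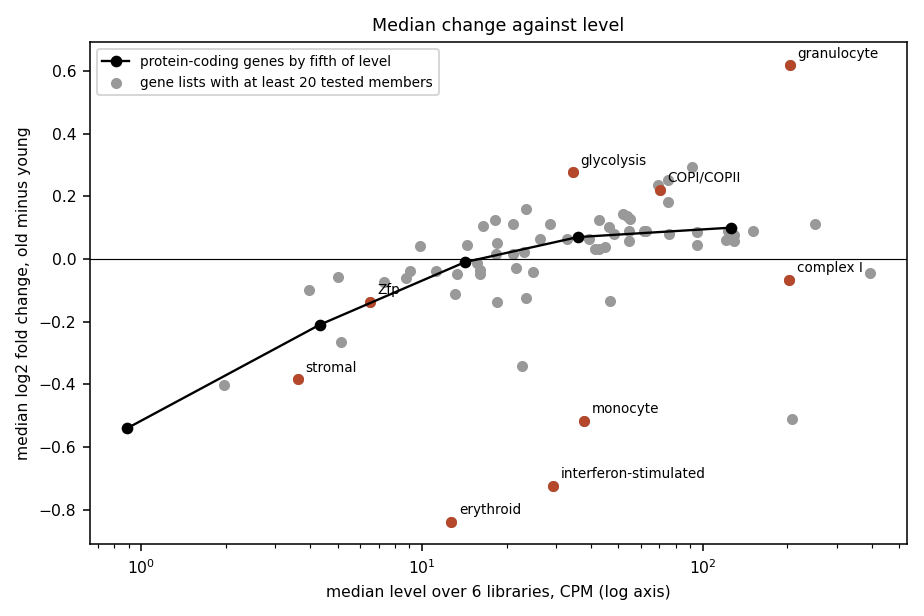
Median log2 fold change (old minus young) against the median level in CPM (log axis) for protein-coding genes in quintiles of level (black line) and for gene lists with at least 20 tested members, apart from 1 list not reported here (dots, some named in red). The line climbs from -0.54 in the lowest quintile to 0.10 in the highest, and the erythroid, interferon-stimulated, monocyte and granulocyte lists lie far from it.

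**Figure D2:**
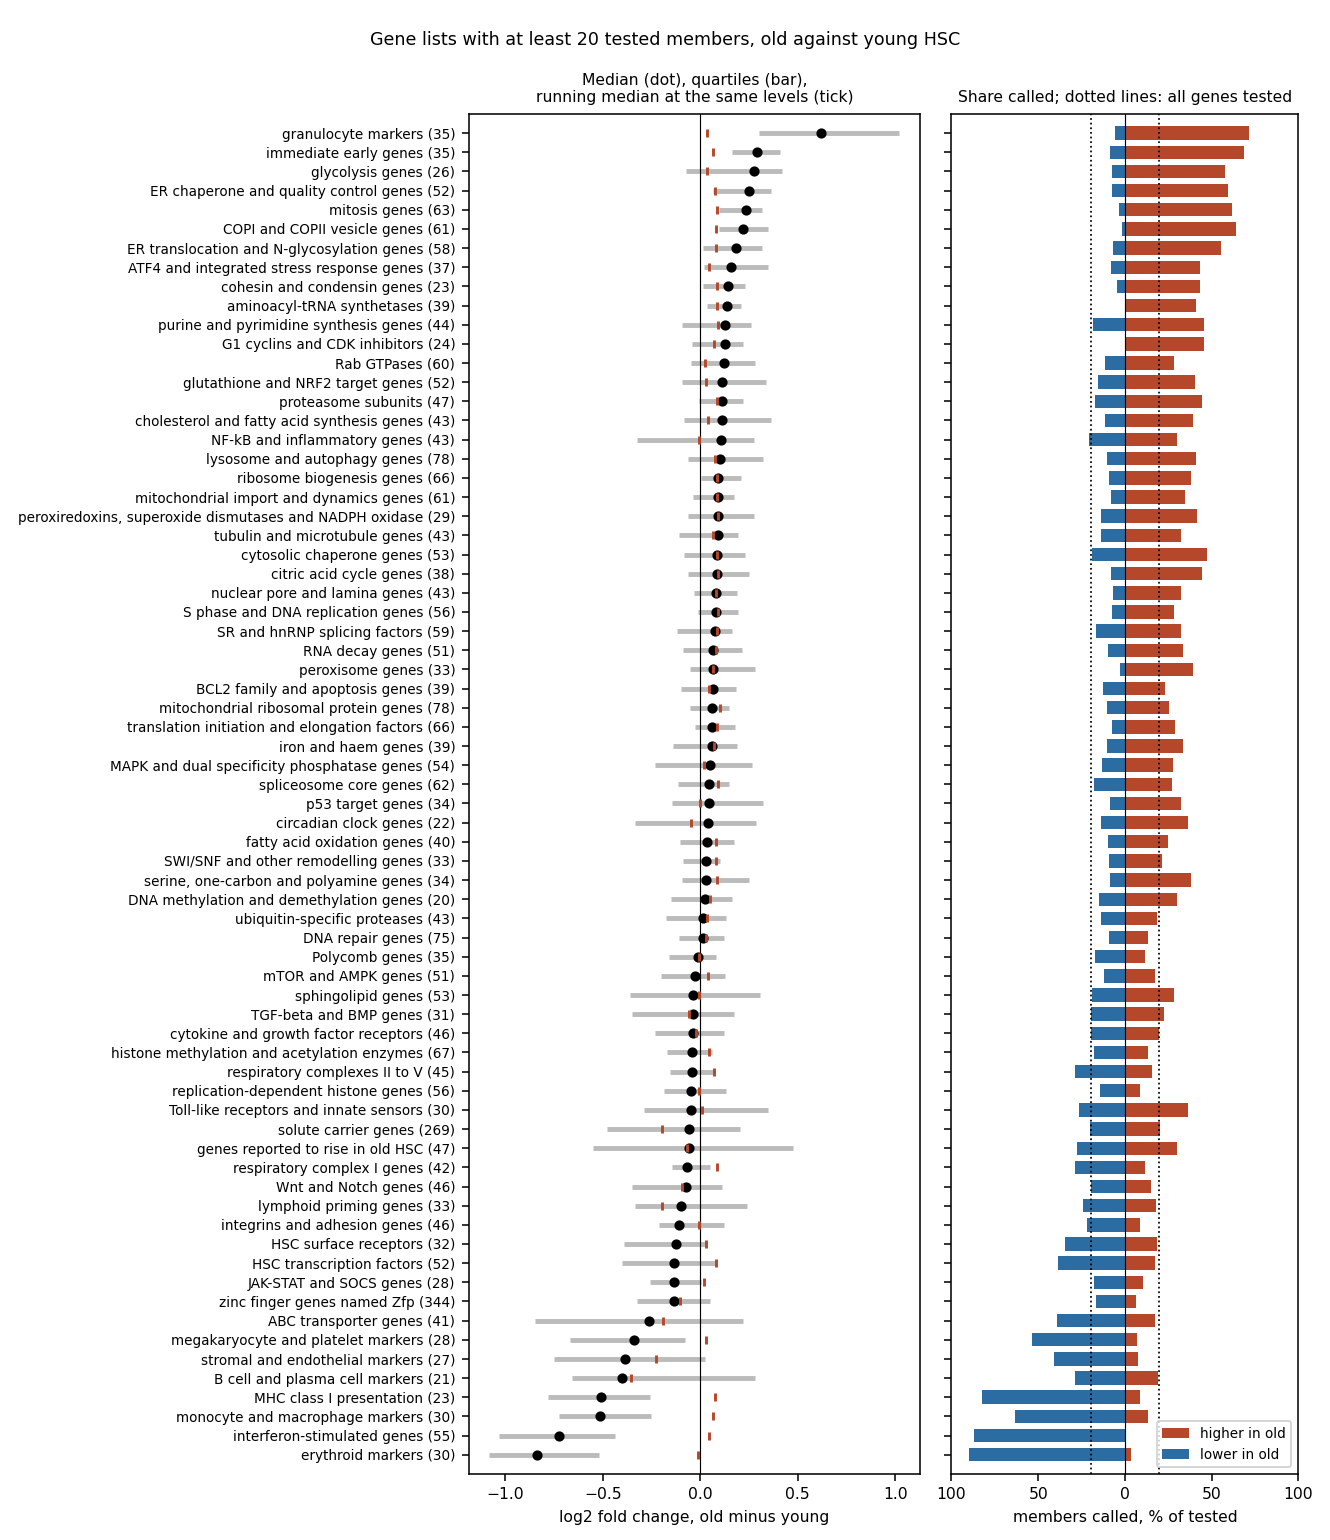
Gene lists with at least 20 tested members (number tested in parentheses), apart from 1 list not reported here. Left, median log2 fold change (dot) with quartiles (grey bar) and the running median of all genes at the same levels (red tick). Right, percent of tested members called higher (red) or lower (blue), with dotted lines at the shares of all tested genes, 19.8% and 19.4%. Lists of the secretory route, mitosis, glycolysis and granulocytes stand at the top, and the erythroid, interferon and monocyte lists at the bottom.

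Most of the tested genes of the secretory route, from entry into the ER to retrieval from the Golgi, rose in old HSC, and few fell. Of the genes for ER chaperones and quality control, 31 were higher and 4 lower of 52 tested (median log2 fold change 0.25). Of those for translocation into the ER and N-glycosylation, 32 were higher and 4 lower of 58 tested (median log2 fold change 0.18). Of those for COPI and COPII vesicles, 39 were higher and 1 lower of 61 tested (median log2 fold change 0.22). The trends were 0.08, 0.08 and 0.08, and the level shares were 34% and 14.5%, 35.1% and 13.9%, and 33.4% and 14.9%. The summed level of granulocyte markers, many of them secreted granule proteins, was higher in the same libraries. So were 4 B cell and plasma cell markers, among them genes of antibody-secreting cells, while 6 fell, or 2 under DESeq2 (values above). The part of these markers in the result was not tested.

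The ER stress response element, a promoter motif bound by ATF6 with NF-Y, was looked for in RefSeq promoters (GRCm38.p6), from 250 bases before to 50 after the start, because it is the classical motif of this pathway. A promoter was matched for 10733 of the 13686 genes (78.4%). With the letters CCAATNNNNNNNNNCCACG, on either strand, it was present in 18 of all matched genes (0.168%) and in 10 of the 47 matched ER chaperone and quality control genes. Of those 10 genes, 8 were higher in old HSC, with log2 fold changes from 0.28 for Calr to 0.74 for Hspa5, and Hsp90b1 and Derl3 were not called. Of all 47 matched genes of that list, with or without the element, 29 were higher. The element was present in 1 of 46 matched translocation and glycosylation genes (Alg12) and in none of 54 matched vesicle genes, although these lists rose as well. A match is a description of letters and not of binding. The stretches below run from 20 bases before the farthest match to the base before the start, 5′ to 3′ on the gene's strand, with the motif in capitals. They show the motif in 4 genes that rose, and in Hsp90b1, which holds a pair of copies and did not pass the threshold.
Hspa5, chr2:34772005-34772089, plus strand: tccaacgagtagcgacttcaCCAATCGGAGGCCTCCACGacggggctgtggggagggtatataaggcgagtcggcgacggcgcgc
Canx, chr11:50325674-50325838, minus strand: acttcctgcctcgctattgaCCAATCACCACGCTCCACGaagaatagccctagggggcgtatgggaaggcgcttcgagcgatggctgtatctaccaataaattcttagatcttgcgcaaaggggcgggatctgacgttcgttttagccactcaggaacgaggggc
Dnajc3, chr14:118937807-118937931, plus strand: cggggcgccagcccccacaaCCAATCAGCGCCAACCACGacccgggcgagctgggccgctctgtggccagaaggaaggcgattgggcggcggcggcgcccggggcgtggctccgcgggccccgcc
Pdia6, chr12:17266471-17266588, plus strand: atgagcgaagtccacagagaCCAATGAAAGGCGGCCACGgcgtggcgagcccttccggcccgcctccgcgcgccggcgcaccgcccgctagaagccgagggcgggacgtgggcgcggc
Hsp90b1, chr10:86705445-86705676, minus strand: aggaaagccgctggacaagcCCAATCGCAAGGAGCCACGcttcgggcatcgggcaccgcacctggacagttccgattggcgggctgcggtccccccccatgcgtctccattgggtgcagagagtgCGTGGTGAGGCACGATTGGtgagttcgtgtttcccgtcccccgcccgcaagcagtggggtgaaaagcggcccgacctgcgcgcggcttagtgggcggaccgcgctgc

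Among folding genes, the oxidase gene Ero1a, which recharges the disulfide isomerases, stood at 75.3, 79.3 and 84.1 CPM in the young libraries and 154, 163 and 162 CPM in the old libraries (a log2 fold change of 1.00 ± 0.051 with an adjusted p of 3.22e-12). Its old libraries all stood far above the young ones. Dnajc3, the co-chaperone P58IPK, had 163, 172 and 170.5 CPM in the young libraries and 261, 265 and 268 CPM in the old libraries (a log2 fold change of 0.65 ± 0.043 with an adjusted p of 2.2e-10). P4hb, the main protein disulfide isomerase, rose from 1103 ± 6.79 to 1613 ± 13.7 CPM (1.46-fold). Among disulfide isomerases and oxidases 8 of 10 were higher and 0 lower (median 0.33), and among genes of ER-associated degradation, which exports misfolded proteins to the proteasome, 10 of 17 were higher and 0 lower (median 0.25). Of the sensors and factors of the unfolded protein response 2 of 7 were higher and 1 lower (median 0.10). Xbp1, the factor activated by IRE1, rose from 228 ± 12 to 408 ± 5.33 CPM, and Ern1, which encodes IRE1, and Atf6 were not called (log2 fold changes of -0.23 and 0.10). Members of the chaperone and quality control list that fell included Uggt2, a glucosyltransferase of the folding check (from 16.6 ± 1.09 to 9.44 ± 0.967 CPM), and Crebrf, a regulator of the response (from 13.8 ± 1.18 to 9.71 ± 0.734 CPM). Hsp90b1, the ER HSP90 GRP94, was the most abundant member not called (from 444 ± 36.5 to 482 ± 23.4 CPM), but was called higher under DESeq2 and without young replicate 2.

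At the entry to the ER, Ssr1 of the translocon-associated complex rose from 1109 ± 70.3 to 1432 ± 71.9 CPM and Stt3b, a catalytic subunit of the oligosaccharyltransferase, from 94.5 ± 1.1 to 123 ± 6.25 CPM (a log2 fold change of 0.38 ± 0.048 with an adjusted p of 2.58e-06). Of the genes for the translocon and signal recognition 12 of 19 were higher and 1 lower (median 0.22), and of oligosaccharyltransferase subunits 6 of 9 were higher and 1 lower (median 0.31). Rpn2, a structural oligosaccharyltransferase subunit, rose from 311 ± 2.34 to 387 ± 9.54 CPM. Alg14 and Dpm3, of the early sugar-donor steps, fell (-0.34 and -0.28 on the log2 scale), and the call of Dpm3 was lost without young replicate 1 or old replicate 2. Dad1, a small oligosaccharyltransferase subunit, was not called (from 516 ± 14 to 521 ± 20.9 CPM).

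Vesicle genes rose in the coats and in the cargo proteins alike. Of COPII coat genes, which bud vesicles from the ER, 7 of 11 were higher and 0 lower (median 0.23), of COPI coat genes, which return cargo to it, 7 of 9 were higher and 1 lower (median 0.22), and of the p24 cargo proteins 7 of 8 were higher and 0 lower (median 0.22). Tmed3, a p24 protein (ENSMUSG00000032353, chromosome 9, 89699206 to 89705068 in GRCm38), had 494, 456 and 451 CPM in the young libraries and 737, 684 and 727 CPM in the old libraries (a log2 fold change of 0.62 ± 0.044 with an adjusted p of 7.41e-10). Kdelr2, a receptor that retrieves escaped ER chaperones, had 452, 436 and 451 CPM in the young libraries and 659.7, 624 and 661 CPM in the old libraries (a log2 fold change of 0.54 ± 0.041 with an adjusted p of 1.59e-09). For both genes the lowest old library lay well above the highest young one. The cargo receptor gene Surf4 rose from 165 ± 11.5 to 261 ± 3.02 CPM (1.58-fold), and Sec24d, a cargo-binding COPII subunit, from 23.6 ± 1.52 to 35.8 ± 0.873 CPM. The member that fell was Copz2, a minor COPI subunit (from 9.26 ± 0.422 to 6.41 ± 0.308 CPM). Of vesicle traffic in general, 17 of 60 tested Rab GTPase genes were higher and 7 lower, among them Rab2a of ER to Golgi traffic, which rose from 160.0 ± 4.29 to 231 ± 11.1 CPM, and Rab27b of granule secretion, which fell from 31.2 ± 2.77 to 21.2 ± 1.63 CPM. The level shares of the Rab genes were 22.2% and 18.5%.

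**Figure D3:**
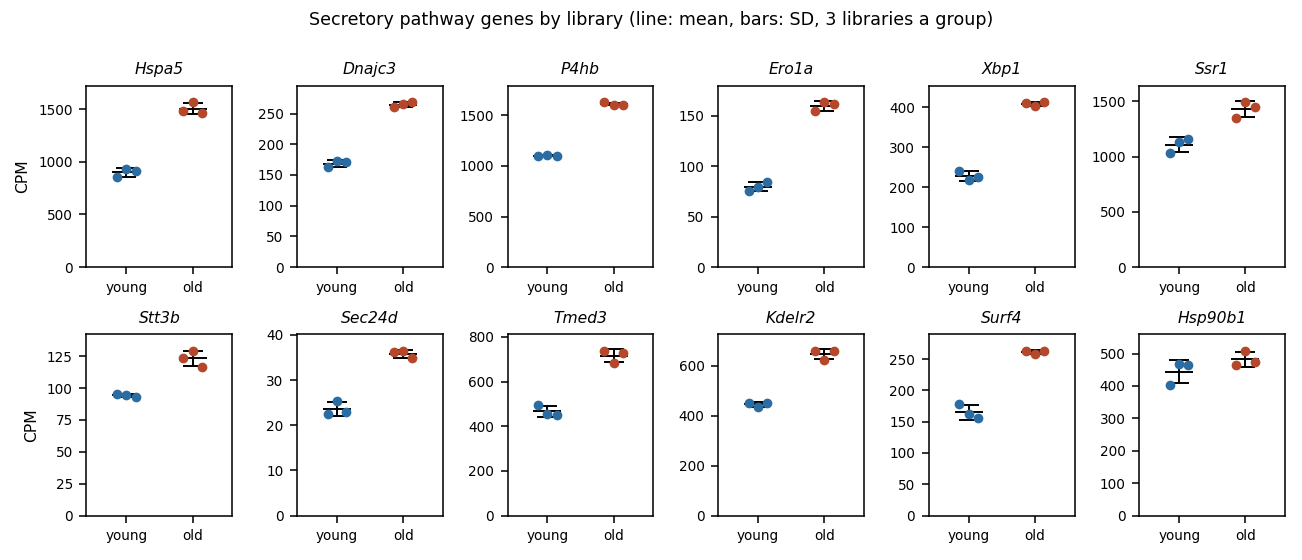
Level in CPM of 12 secretory pathway genes in each young (blue) and old (red) library, with group mean (line) and SD (bars), 3 libraries a group. The old libraries lie above the young ones for 11 genes, from Hspa5 to Surf4, and Hsp90b1 was not called.

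Of cytosolic chaperone genes, 25 were higher and 10 lower of 53 tested (median log2 fold change 0.09), with a trend of 0.08 and level shares of 34.9% and 14.9%. Of the subunits of the chaperonin TRiC, which folds actin and tubulin, 7 of 8 were higher and 0 lower (median 0.21), and Cct8 rose from 706 ± 26.9 to 898 ± 9.56 CPM. Hspa8, the constitutive HSP70, rose from 2652 ± 54.1 to 3782 ± 33.1 CPM (44.8% of its words are shared, that is, 31-base stretches of its transcripts also found in other genes, which makes a count uncertain). Of HSP70 and small heat shock genes, many of them heat-inducible, 2 of 7 were higher and 4 lower (median -0.19), and the higher members were Bag3 and Dnajb1 (log2 fold changes of 0.32 and 0.14), whose calls were lost without young replicate 2 or old replicate 1, that of Bag3 also without young replicate 1 and under DESeq2. Hspa1a fell from 156 ± 6.2 to 73.8 ± 4.57 CPM, Hspa1b from 19.5 ± 1.72 to 6.31 ± 0.951 CPM and the small heat shock gene Hspb1 from 11 ± 1.46 to 5.11 ± 0.653 CPM, and for these 3 genes the share of 31-base words also found in other genes was 70.1%, 68.1% and 55.4%, so these counts are uncertain too. Hsp90ab1, the constitutive HSP90, was not called (from 1892 ± 7.83 to 1886 ± 64.2 CPM).

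Within the proteasome, core and cap genes were higher where called, with 1 exception, and the immunoproteasome genes fell. Of the 20S core genes 4 of 14 were higher and 0 lower (median 0.08), and of the 19S cap genes, which unfold and feed substrates, 12 of 18 were higher and 1 lower (median 0.15). The whole proteasome list had 21 higher and 8 lower of 47 tested, with a trend of 0.08 and level shares of 40.8% and 13.8%. The core median lay at that trend. The catalytic subunits that interferon exchanges into the core, Psmb8, Psmb9 and Psmb10, all fell. Psmb9 (ENSMUSG00000096727, chromosome 17, 34181987 to 34187764 in GRCm38) had 265, 252 and 249 CPM in the young libraries and 166, 154 and 155 CPM in the old libraries (a log2 fold change of -0.69 ± 0.048 with an adjusted p of 3.87e-10), and Psmb8 fell from 909.5 ± 72.2 to 651 ± 32.8 CPM and Psmb10 from 252 ± 30.7 to 169 ± 7.39 CPM. For Psmb9 every old library was below every young one. The MHC class I presentation list, which holds these Psmb genes too, moved in the same direction. Of its genes, 2 were higher and 19 lower of 23 tested (median log2 fold change -0.51), against a trend of 0.08 at their levels. B2m, the light chain of every class I molecule, fell from 5724 ± 373 to 3202 ± 146 CPM (a log2 fold change of -0.84 ± 0.044 with an adjusted p of 5.48e-12). The higher members were Calr and Pdia3, which are ER chaperones as well. Of interferon-stimulated genes, which also include Psmb8 and Psmb9, 0 were higher and 48 lower of 55 tested (median log2 fold change -0.72).

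The interferon-stimulated response element, with the letters GAAANNGAAA on either strand, was present in 3.92% of the 10733 matched promoters, in 19 of 41 matched interferon-stimulated genes and in 5 of 19 matched class I presentation genes. Of those 19 and 5 genes, 17 and 4 fell. Of all matched genes of these lists, with or without the element, 34 of 41 and 16 of 19 fell. The shares holding the element describe the lists as chosen, since this motif is known from such genes. The element is shown for B2m and for Irgm1, an interferon-induced GTPase, both of which fell, and in Irgm1 a pair of matches overlap. Sequences run from 20 bases before the match to the base before the start.
B2m, chr2:122147528-122147686, plus strand: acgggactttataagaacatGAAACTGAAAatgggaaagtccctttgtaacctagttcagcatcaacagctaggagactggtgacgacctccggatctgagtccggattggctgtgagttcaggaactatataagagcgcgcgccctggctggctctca
Irgm1, chr11:48871421-48871470, minus strand: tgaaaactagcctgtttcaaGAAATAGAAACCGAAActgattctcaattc

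Granulocyte genes rose and monocyte genes fell. Of granulocyte markers, 25 were higher and 2 lower of 35 tested (median log2 fold change 0.62), and of monocyte and macrophage markers, 4 were higher and 19 lower of 30 tested (median log2 fold change -0.52). Irf8, which drives monocyte and dendritic cell fate (ENSMUSG00000041515, chromosome 8, 120736358 to 120756694 in GRCm38), had 124, 116 and 121 CPM in the young libraries and 45.4, 45.1 and 51.7 CPM in the old libraries (a log2 fold change of -1.35 ± 0.057 with an adjusted p of 1.87e-13). Gfi1, a repressor that favours granulocytes, had 24.7, 22.1 and 27.2 CPM in the young libraries and 48.4, 41.9 and 44.6 CPM in the old libraries (a log2 fold change of 0.86 ± 0.081 with an adjusted p of 4.41e-08). Neither gene's old libraries overlapped the young ones. Spi1, the myeloid factor PU.1, rose from 145 ± 7.2 to 212 ± 7.17 CPM, and Cebpe, of late granulocyte steps, from 85.4 ± 12.2 to 153 ± 8.8 CPM. Cebpa, of early myeloid commitment, was not called (from 32.3 ± 0.54 to 29.6 ± 0.0795 CPM).

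Csf3r, the receptor for granulocyte colony-stimulating factor, rose from 54.2 ± 1.71 to 77.3 ± 3.99 CPM (23.1% of its words are shared), and Csf1r, the macrophage receptor, fell from 15.8 ± 1.27 to 9.73 ± 0.573 CPM. Ly86, which binds a Toll-like receptor relative on monocytes and B cells, fell from 86.2 ± 3.38 to 32.6 ± 1.92 CPM (a log2 fold change of -1.40 ± 0.061 with an adjusted p of 2.65e-13). Of the genes of the phagocyte NADPH oxidase, which makes superoxide in neutrophils, 5 of 5 were higher and 0 lower (median 0.48), and the part of the higher granulocyte marker levels in this was not tested. Its organiser subunit Ncf1 had 54.3, 53.2 and 54.7 CPM in the young libraries and 106, 103 and 111 CPM in the old libraries, close to a doubling in every old library. Outside phagocytes, Nox4, an oxidase of other tissues, fell from 20.7 ± 1.43 to 9.83 ± 1.06 CPM. Of dendritic cell markers, 1 was higher and 7 lower of 15 tested (median log2 fold change -0.42), against a trend of -0.28 at their levels.

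**Figure D4:**
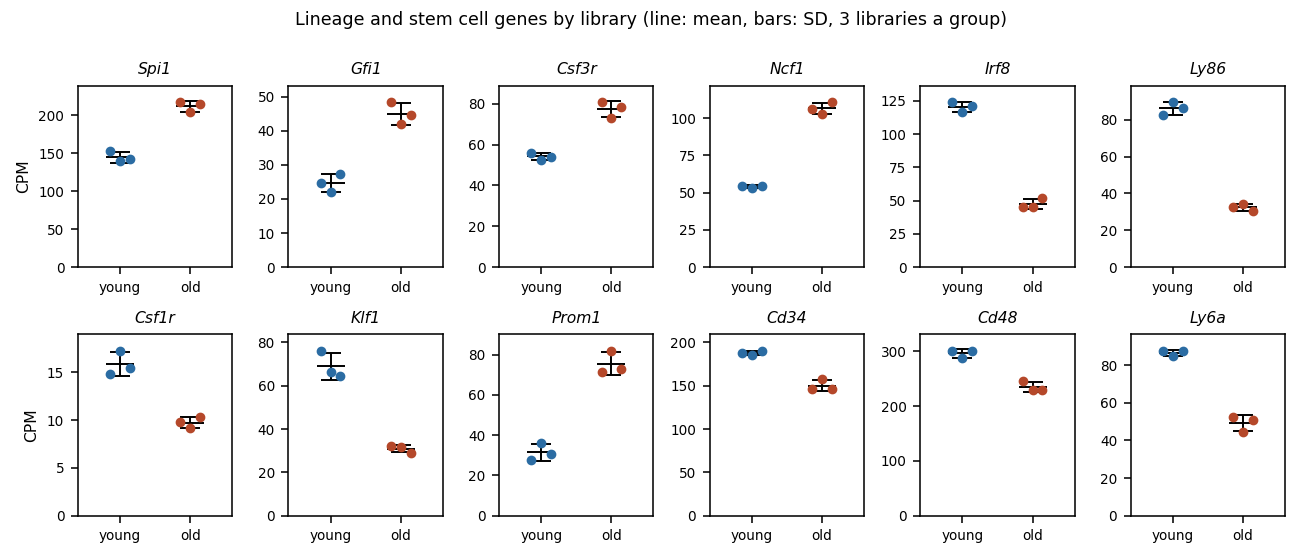
Level in CPM of 12 lineage and stem cell genes in each young (blue) and old (red) library, with group mean (line) and SD (bars), 3 libraries a group. Spi1, Gfi1, Csf3r, Ncf1 and Prom1 lie higher in every old library, and Irf8, Ly86, Csf1r, Klf1, Cd34, Cd48 and Ly6a lower.

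Genes of the stem cell lists moved in both directions, more often down. Of HSC transcription factor genes, 9 were higher and 20 lower of 52 tested (median log2 fold change -0.13). That list also holds lineage factors described above or below, among them Irf8, Klf1, Spi1, Gfi1 and Cebpa. Of HSC surface receptors, 6 were higher and 11 lower of 32 tested (median log2 fold change -0.13). The trends were 0.08 and 0.03, and the level shares were 28.9% and 16%, and 24% and 18.1%. Prom1, the surface protein CD133, had 27.8, 36.1 and 30.4 CPM in the young libraries and 71.4, 81.9 and 72.9 CPM in the old libraries (a log2 fold change of 1.27 ± 0.08 with an adjusted p of 8.32e-11), more than a doubling. Ly6a, the mouse stem cell antigen Sca-1, fell from 86.7 ± 1.53 to 49.1 ± 4.27 CPM (31.9% of its words are shared), Cd34 from 188 ± 2.54 to 149.9 ± 6.33 CPM and Cd48, absent from the most primitive HSCs, from 296 ± 7.6 to 235 ± 9.1 CPM. Procr, the receptor EPCR, fell from 3.89 ± 0.203 to 2.54 ± 0.35 CPM (a log2 fold change of -0.62 ± 0.18 with an adjusted p of 0.00928), a low level in both groups, and the call was lost under DESeq2. Slamf1, or CD150, did not pass (from 7.71 ± 1.34 to 7.47 ± 0.275 CPM), nor did Kit (from 119 ± 4.56 to 113 ± 2.8 CPM).

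Of the stem cell factors, Meis1 fell from 90.9 ± 2.08 to 77 ± 3.62 CPM, Gata2 from 40.1 ± 3.69 to 33.1 ± 1.15 CPM and Mycn from 8.87 ± 0.519 to 6.39 ± 0.311 CPM. Hlf rose from 17.9 ± 1.16 to 20.6 ± 0.691 CPM, Myc from 116 ± 5.83 to 139 ± 4.22 CPM and Hif1a, the oxygen-regulated factor, from 49.1 ± 3.18 to 83.6 ± 5.2 CPM. The call of Hlf was lost under DESeq2, with the replicate block, and without young replicate 1 or 2 or old replicate 1 or 2. Runx1 and Mecom were not called (0.00 and -0.05 on the log2 scale). Klf1, the erythroid factor, fell from 69 ± 6.25 to 30.9 ± 1.75 CPM, in step with erythroid markers, of which 27 of 30 tested fell and 1 rose. Of Hox genes, 1 was higher and 3 lower of 14 tested (median log2 fold change -0.39); the exception upward was Hoxa9, a partner of Meis1, from 28.8 ± 0.566 to 33.4 ± 0.732 CPM.

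Genes reported elsewhere to rise in old HSC went both ways. Of these, 14 were higher and 13 lower of 47 tested (median log2 fold change -0.06), with level shares of 18.1% and 20.0%. Gpx3, a secreted glutathione peroxidase, had 11.2, 9.32 and 10.4 CPM in the young libraries and 40.4, 38.2 and 39.7 CPM in the old libraries (a log2 fold change of 1.93 ± 0.079 with an adjusted p of 1.21e-13), and every old library stood far above the young ones. Vwf, von Willebrand factor of platelet-biased HSCs, fell from 21.4 ± 1.27 to 12.5 ± 0.565 CPM (a log2 fold change of -0.77 ± 0.085 with an adjusted p of 3.77e-07). Of megakaryocyte and platelet markers, 2 were higher and 15 lower of 28 tested (median log2 fold change -0.34). Gda, a guanine deaminase, rose from 43.9 ± 4.81 to 67.9 ± 2.28 CPM, while Cavin2, a caveolar protein, fell from 27.7 ± 2.34 to 18.4 ± 0.866 CPM. Lymphoid priming genes went both ways as well, 6 higher and 8 lower of 33, with 4 lower under DESeq2 and 5 without young replicate 3, old replicate 1 or old replicate 3. Tcf7, a T lineage factor that is low in both groups, had 0.581, 1.03 and 0.829 CPM in the young libraries and 3.88, 2.82 and 3.73 CPM in the old libraries, and Ets1 rose from 8.58 ± 0.529 to 17.7 ± 2.06 CPM. Cd52 fell from 144 ± 1.97 to 84.9 ± 1.77 CPM and Mef2c, a lymphoid and myeloid factor, from 96 ± 9.71 to 77.1 ± 3.99 CPM.

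Among cell division genes, those of chromosome segregation were often higher in old HSC, and 2 of them fell. Of mitosis genes, 39 were higher and 2 lower of 63 tested (median log2 fold change 0.24), of S phase and replication genes, 16 were higher and 4 lower of 56 tested (median log2 fold change 0.08), and of G1 cyclins and CDK inhibitors, 11 were higher and 0 lower of 24 tested (median log2 fold change 0.12). The trends at these levels were 0.09, 0.09 and 0.07, the level shares were 35.6% and 13.8%, 37.1% and 13.9%, and 30.8% and 15.6%, and the difference between these lists was not tested. Tacc3, which stabilises spindle fibres, had 138, 153 and 150.2 CPM in the young libraries and 201, 204 and 205 CPM in the old libraries (a log2 fold change of 0.47 ± 0.047 with an adjusted p of 1.09e-07). Of condensin genes, whose products compact mitotic chromosomes, 7 of 8 were higher and 0 lower (median 0.22). Of 8 cohesin ring, loader and associated genes 0 were higher and 1 lower (median 0.03). The gene called was the loader gene Mau2, which fell from 32.2 ± 2.28 to 25.4 ± 1.76 CPM. The whole list of cohesin and condensin genes, which holds further cohesin regulators, had 10 higher and 1 lower of 23 tested. Members outside both groups thus rose too. Pttg1, or securin, and Top2a fell (-0.44 and -0.19). Rrm2, the small subunit of ribonucleotide reductase, rose from 227 ± 7.22 to 381 ± 1.29 CPM, and Tyms, thymidylate synthase, fell from 305 ± 6.3 to 261 ± 4.52 CPM.

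The mitosis promoter motifs were common in that list. The cell cycle homology region, TTTGAA on either strand, was present in 34 of 53 matched mitosis genes against 15.4% of all matched promoters, and the CCAAT box in 39 of 53 against 43.1%. Both shares describe the list as chosen, since these motifs are known from such genes.

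Of the 24 G1 cyclins and CDK inhibitors, 11 were called, each as higher. Ccnd3, cyclin D3, rose from 78.4 ± 9.1 to 98.1 ± 3.28 CPM, Cdkn1a, or p21, from 49.98 ± 1.97 to 57.9 ± 5.25 CPM and Cdkn1c, or p57, from 2.35 ± 0.319 to 3.84 ± 0.609 CPM (27.2% of its words are shared). The call of Cdkn1a was lost without young replicate 2 or old replicate 1. Cdk6, which is very abundant here, was not called (from 1823 ± 32.9 to 1754 ± 7.81 CPM). Of p53 target genes, 11 were higher and 3 lower of 34 tested (median log2 fold change 0.04), and all 3 Gadd45 growth arrest genes rose, Gadd45a from 30.9 ± 0.856 to 56.4 ± 2.79 CPM (a log2 fold change of 0.87 ± 0.062 with an adjusted p of 5.58e-10). Plk3, a stress kinase, rose from 9.3 ± 0.617 to 16.8 ± 1.71 CPM, and Tnfrsf10b, a death receptor, fell from 18.1 ± 1.1 to 10.6 ± 0.451 CPM. Trp53 itself was not called (from 213 ± 9.93 to 216 ± 4.78 CPM).

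Of DNA repair genes, 10 were higher and 7 lower of 75 tested (median log2 fold change 0.01), lower shares in both directions than those of all genes. Among the higher members was Xpc, the lesion sensor of nucleotide excision repair, which had 98.7, 99.7 and 101 CPM in the young libraries and 179, 177 and 169 CPM in the old libraries (a log2 fold change of 0.81 ± 0.045 with an adjusted p of 1.31e-11). Its old libraries did not overlap the young ones. Of Fanconi and homologous recombination genes 2 of 21 were higher and 2 lower (median -0.04). Fancl, the Fanconi ubiquitin ligase, fell from 39.9 ± 1.21 to 29.1 ± 0.954 CPM. Of replication-dependent histone genes, 5 were higher and 8 lower of 56 tested (median log2 fold change -0.05), and 46 of them have 20% or more of their words elsewhere, which leaves those counts uncertain. The median was 0.065 without young replicate 1 and 0.015 without old replicate 2, and under RLE size factors 9 were higher and 7 lower.

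Of Polycomb genes, 4 were higher and 6 lower of 35 tested (median log2 fold change -0.01), of histone methylation and acetylation enzymes, 9 were higher and 12 lower of 67 tested (median log2 fold change -0.04), and of DNA methylation genes, 6 were higher and 3 lower of 20 tested (median log2 fold change 0.02). The level shares were 21.3% and 17%, 25.2% and 16.1%, and 25.2% and 15.7%. The count lower was down to 2 Polycomb genes without old replicate 2 and to 3 without young replicate 3 or old replicate 3, and to 7 of the enzymes without any 1 old library. The DNA methylation median was -0.029 without young replicate 1 and -0.003 without old replicate 1. Dnmt3a, a de novo DNA methyltransferase that is often mutated in clonal haematopoiesis, had 20.6, 23.5 and 23.8 CPM in the young libraries and 17.6, 17.3 and 15.5 CPM in the old libraries (a log2 fold change of -0.43 ± 0.086 with an adjusted p of 0.00052). Its old libraries all lay below the young ones. Ezh2, the Polycomb methyltransferase, fell from 73.8 ± 4.56 to 64.2 ± 5.73 CPM with overlapping libraries and a call lost under DESeq2 and without young replicate 2 or 3 or old replicate 2 or 3, and Tet2 was not called (from 18.7 ± 1.83 to 16.8 ± 1.73 CPM). Yaf2 and Pcgf5, of Polycomb repressive complex 1, rose from 54.3 ± 5.04 to 78.8 ± 4.24 CPM and from 42 ± 3.37 to 59.1 ± 0.785 CPM, and Chd7, a remodeller, from 24.6 ± 0.829 to 36.6 ± 1.83 CPM. Foxo3, which guards HSC quiescence, fell from 52.9 ± 0.208 to 40.7 ± 2.04 CPM (a log2 fold change of -0.38 ± 0.064 with an adjusted p of 8.61e-05), and Sirt1 and Sirt7 were not called (0.11 and 0.17). The 344 tested Zfp zinc finger genes had a median of -0.14, near the trend of -0.10 at their low levels, and 58 were lower, or 27 under DESeq2.

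Of aminoacyl-tRNA synthetases, 16 were higher and 0 lower of 39 tested (median log2 fold change 0.14), with a trend of 0.09 and level shares of 31.5% and 15%, and of their cytosolic members 12 of 19 were higher and 0 lower (median 0.16). Tars, the threonyl enzyme, rose from 149.7 ± 1.4 to 197 ± 7.8 CPM (a log2 fold change of 0.40 ± 0.048 with an adjusted p of 1.51e-06). Of ATF4 and integrated stress response genes, 16 were higher and 3 lower of 37 tested (median log2 fold change 0.16), with a trend of 0.05 and level shares of 24.8% and 17.5%. Cebpb, a factor of stress and of emergency granulopoiesis, had 34.8, 32.9 and 29.3 CPM in the young libraries and 80.3, 70.2 and 74.5 CPM in the old libraries, more than a doubling. Of ribosome biogenesis genes, 25 were higher and 6 lower of 66 tested (median log2 fold change 0.09), at the trend of 0.09 and near the level shares of 35.5% and 13.9%. Among them Ddx56, a nucleolar helicase, rose from 109.9 ± 4.8 to 145 ± 3.15 CPM and Ubtf, a factor of RNA polymerase I, fell from 39.1 ± 0.713 to 31.1 ± 1.47 CPM. The E-box CACGTG stood in 14 of 56 matched ribosome biogenesis promoters, against 11% of all. SR and hnRNP splicing factor genes had a median of 0.08 and a trend of 0.09, with 19 higher and 10 lower of 59, and 5 lower without young replicate 3 or 6 without young replicate 2, old replicate 1 or old replicate 3.

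Of respiratory complex I genes, 5 were higher and 12 lower of 42 tested (median log2 fold change -0.07), of complexes II to V, 7 were higher and 13 lower of 45 tested (median log2 fold change -0.04), and of 13 mitochondrially encoded genes, 4 fell and 0 rose. The summed level of these 13 genes overlapped between the ages, at 55600 to 60400 CPM in the young and 56300 to 57600 CPM in the old libraries. Of citric acid cycle genes, 17 were higher and 3 lower of 38 tested (median log2 fold change 0.09), and of mitochondrial import and dynamics genes, 21 were higher and 5 lower of 61 tested (median log2 fold change 0.09). The trends of the citric acid cycle and import lists were 0.09 and 0.09, with level shares of 34.9% and 15.2%, and 32.8% and 14.9%. Those of complex I and of complexes II to V were 0.09 and 0.07, with level shares of 41.3% and 13.7%, and 40% and 14.6%. The counts and medians of the respiratory complexes depended on single libraries. Without old replicate 2, 1 complex I gene was lower in place of 12 and 6 genes of complexes II to V in place of 13, and the medians were 0.004 and 0.011. Without young replicate 1 the median of complexes II to V was 0.007. Without young replicate 3, 5 and 8 genes were lower, and without old replicate 1, 7 complex I genes were. Inside the respiratory complexes single subunits went both ways. Atp5a1, the alpha subunit of ATP synthase, rose from 490.2 ± 18.2 to 622 ± 8.68 CPM and Ndufs1, the largest core subunit of complex I, from 88.4 ± 1.73 to 107 ± 4.36 CPM, while Uqcrq, a small complex III subunit, fell from 617 ± 42.9 to 507 ± 25.2 CPM and Atp5e, the epsilon subunit, from 381 ± 8.24 to 313 ± 24.6 CPM. Mcu, the calcium uniporter, rose from 105 ± 0.932 to 152 ± 2.8 CPM.

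Transcript length moved with these calls. Of 40 nuclear-encoded respiratory genes with a longest transcript of 1200 bases or fewer, 0 rose and 13 fell (median -0.09), and of 47 with a longer one, 12 rose and 12 fell (median 0.00). Spearman's rho between length and log2 fold change was 0.34 across these 87 genes. Without old replicate 2, 2 short genes rose and 3 fell (median -0.02), and 14 long ones rose and 4 fell (median 0.06), and without young replicate 3, 7 short and 6 long genes fell. Among all protein-coding genes of the highest quintile by level the same direction held, with 17.5% higher and 31.4% lower of 405 short genes and 47.5% higher and 10.7% lower of 2257 longer ones. Without old replicate 2 these shares were 21.7% higher and 16.8% lower against 48.1% and 8.2%. Across 13309 protein-coding genes of every level the direction was the opposite, with a rho of -0.15 between length and log2 fold change. The quintile with the longest transcripts had 10.6% higher and 27.5% lower, and that with the shortest had 22.5% and 19.6%. The part of transcript length in the result was not tested.

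Of glycolysis genes, 15 were higher and 2 lower of 26 tested (median log2 fold change 0.28), and of 10 tested pentose phosphate genes 6 rose and 1 fell. Pgd, the second NADPH-producing enzyme of that pathway, had 89.1, 77 and 76.2 CPM in the young libraries and 123, 113 and 119 CPM in the old libraries (a log2 fold change of 0.55 ± 0.058 with an adjusted p of 2.35e-07), and Rpe rose from 71.2 ± 2.97 to 112 ± 9.13 CPM. Rpia, which makes ribose 5-phosphate, fell from 42.4 ± 0.645 to 29.5 ± 1.18 CPM. Of purine and pyrimidine genes, 20 were higher and 8 lower of 44 tested (median log2 fold change 0.13), with a trend of 0.09 and level shares of 31.9% and 15.1%. Ada, adenosine deaminase, had 40.6, 35.2 and 37.2 CPM in the young libraries and 74, 65.8 and 68.2 CPM in the old libraries (a log2 fold change of 0.88 ± 0.064 with an adjusted p of 9.67e-10), and Gda rose as given above. The nucleoside diphosphate kinase genes Nme1 and Nme4 fell (-0.32 and -0.49). In serine synthesis, Psat1 rose from 77.2 ± 2.4 to 111 ± 3.02 CPM and Psph from 58 ± 1.58 to 86.8 ± 1.13 CPM, and Phgdh, the first step, was not called (from 258 ± 22.9 to 262 ± 5.34 CPM; 56.3% of its words are shared).

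Of glutathione and NRF2 target genes, 21 were higher and 8 lower of 52 tested (median log2 fold change 0.11), with 5 lower without young replicate 2 or old replicate 2. The trend was 0.03 and the level shares were 26.0% and 17.6%. Gsr, glutathione reductase, which regenerates glutathione with NADPH, had 256, 285 and 283 CPM in the young libraries and 511, 537 and 514 CPM in the old libraries (a log2 fold change of 0.92 ± 0.048 with an adjusted p of 3.94e-12). Slc7a11, the cystine importer, had 23.5, 27.6 and 23.8 CPM in the young libraries and 15.1, 16.3 and 13.5 CPM in the old libraries (a log2 fold change of -0.73 ± 0.097 with an adjusted p of 5.17e-06), and its old libraries lay below every young one. The antioxidant response element, TGACNNNGC on either strand, was present in 15 of 44 matched promoters of the list against 16.4% of all. That share describes the list as chosen, since the motif is known from such genes. Slc40a1, the iron exporter ferroportin, rose from 26 ± 1.79 to 63.9 ± 4.25 CPM, and Alas1, the first enzyme of haem synthesis outside red cells, from 312 ± 10.8 to 572 ± 7.67 CPM. Blvrb and Hebp1, of haem handling, fell (-0.94 and -1.14). Prdx2 fell from 412 ± 19.5 to 344 ± 13.6 CPM.

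Sphingolipid genes, the pathway of the study's title, went both ways. Of 53 tested genes, 15 were higher and 10 lower (28.3% and 18.9%), with level shares of 21.2% and 18.4%. Sptlc2, of the entry enzyme serine palmitoyltransferase, rose from 81.6 ± 0.883 to 116 ± 1.86 CPM and Cers2, a ceramide synthase for very long acyl chains, from 176 ± 1.66 to 245 ± 2.78 CPM. The desaturases that finish ceramide and phytoceramide moved in opposite directions. Degs2 (ENSMUSG00000021263, chromosome 12, 108678711 to 108702315 in GRCm38) had 2.16, 1.72 and 3.08 CPM in the young libraries and 17.9, 16.1 and 17.3 CPM in the old libraries (a log2 fold change of 2.87 ± 0.15 with an adjusted p of 5.48e-12), whereas Degs1 fell from 81.5 ± 4.81 to 60.1 ± 2.82 CPM and stayed above Degs2 in counts, at a similar transcript length. Sgms2, a sphingomyelin synthase, had 52.7, 58.7 and 59.8 CPM in the young libraries and 120.0, 129 and 127 CPM in the old libraries (a log2 fold change of 1.14 ± 0.055 with an adjusted p of 1.21e-12). For Degs2 and Sgms2 every old library was above every young one.

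Of the sphingosine 1-phosphate enzymes, transporters and receptors, 1 of 12 was higher and 2 lower (median -0.20). Sphk1, a sphingosine kinase, had 16.1, 14.5 and 14.6 CPM in the young libraries and 8.88, 9.23 and 7.22 CPM in the old libraries (a log2 fold change of -0.82 ± 0.11 with an adjusted p of 8.21e-06), without overlap between the groups. Sphk2, the target of the inhibitor in the third group, had 7.55, 5.93 and 8.05 CPM in the young libraries and 9.3, 7.08 and 6.86 CPM in the old libraries and was not called (a log2 fold change of 0.10 ± 0.14 with an adjusted p of 0.595). The exporter gene Mfsd2b fell from 46 ± 4.22 to 35.2 ± 2.49 CPM. The lyase gene Sgpl1 and the receptor gene S1pr1 were not called (-0.21 and 0.05). Cholesterol and fatty acid synthesis had 17 higher and 5 lower of 43, with Elovl5, a fatty acid elongase, rising from 108 ± 2.66 to 151 ± 2.14 CPM, and of peroxisome genes 13 were higher and 1 lower of 33. The level shares of these lists were 21.8% and 16.8%, and 26.1% and 16.3%. The peroxisome median of 0.06 lay at the trend of 0.06.

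Of lysosome and autophagy genes, 32 were higher and 8 lower of 78 tested (median log2 fold change 0.10), with a trend of 0.08 and level shares of 29.9% and 15.6%. Among V-ATPase subunits, which acidify the lysosome, 9 of 13 were higher and 0 lower (median 0.26), among hydrolases and their activators 12 of 25 were higher and 3 lower (median 0.10), and among autophagy genes 8 of 30 were higher and 3 lower (median 0.08). Atp6v0c, the pump's membrane ring subunit, had 512, 434 and 462 CPM in the young libraries and 773, 693 and 735 CPM in the old libraries (a log2 fold change of 0.65 ± 0.054 with an adjusted p of 7.79e-09). Psap, the saposin precursor, fell from 101 ± 2.82 to 69.9 ± 0.805 CPM and Ctsh, cathepsin H, from 38.6 ± 2.25 to 24 ± 0.955 CPM. Tfeb, the regulator of lysosome genes, was not called at a low level (from 3.31 ± 0.465 to 2.51 ± 0.635 CPM). The E-box, a motif bound by TFEB, stood in 18 of 60 matched promoters of the list against 11% of all, in 9 of 22 members that rose and in 0 of 6 that fell. Among ribosome biogenesis genes it stood in 7 of 20 that rose and in 1 of 5 that fell. The part of the E-box in either list was not tested.

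**Figure D5:**
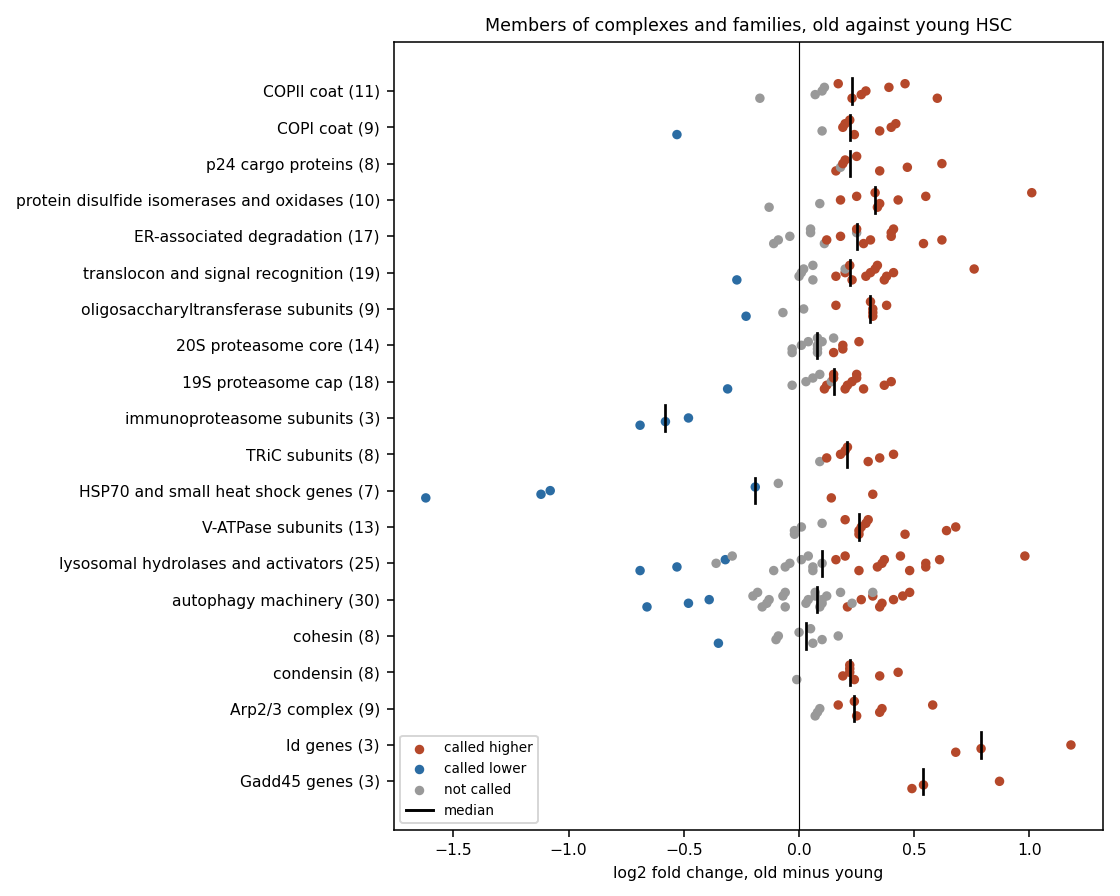
Log2 fold change (old minus young) of each tested member of 20 complexes and families (number tested in parentheses), coloured by call, with the median as a black line. COPII, COPI and p24 members lie mostly right of 0, the 3 immunoproteasome subunits left of it, condensin to the right of cohesin, and the HSP70 and small heat shock genes reach -1.62.

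Of the Arp2/3 complex, which branches actin filaments, 6 of 9 were higher and 0 lower (median 0.24). Tpm3, a tropomyosin, had 314, 318 and 322 CPM in the young libraries and 660.1, 703 and 692 CPM in the old libraries (a log2 fold change of 1.11 ± 0.041 with an adjusted p of 1.82e-14; 27% of its words are shared). Tmsb10, an actin monomer binder, fell from 449.6 ± 23.6 to 289.9 ± 20.2 CPM (32% of its words are shared). Cdc42, whose activity is known to rise in aged HSCs, was not called as a transcript (from 449 ± 14.4 to 475 ± 18.9 CPM). Of integrin and adhesion genes 4 were higher and 10 lower of 46, or 5 lower under DESeq2, with level shares of 19.5% and 18.9%. Selplg, the selectin ligand of homing cells, fell from 189 ± 15.1 to 139.9 ± 4.21 CPM, Itga4 from 94.4 ± 2.28 to 71.7 ± 5.95 CPM and the niche receptor gene Cxcr4 from 17.2 ± 1.12 to 14.2 ± 0.735 CPM. The call of Cxcr4 was lost under DESeq2 and without young replicate 3 or old replicate 2. Itgb1 rose from 62.7 ± 6.64 to 75.5 ± 5.44 CPM and Itgb2, the leukocyte beta chain, from 16.9 ± 0.549 to 24.6 ± 1.64 CPM.

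In the TGF-beta and BMP list, 7 were higher and 6 lower of 31 (22.6% and 19.4%), with level shares of 14.7% and 19.8%. The receptor gene Tgfbr1 fell from 19.4 ± 1.92 to 13.4 ± 1.77 CPM and Ltbp1, which stores the latent ligand, from 12.3 ± 1.21 to 5.78 ± 0.732 CPM. The genes Id1, Id2 and Id3, inhibitors of helix-loop-helix factors, all rose. Id2 had 34.8, 37.3 and 34.5 CPM in the young libraries and 78.4, 82.1 and 81.3 CPM in the old libraries (a log2 fold change of 1.18 ± 0.057 with an adjusted p of 1.14e-12). Id1 rose from 47.5 ± 6.2 to 76.4 ± 2.63 CPM and Id3 from 21.5 ± 2.5 to 37.2 ± 2.24 CPM. The old libraries of Id2 stood above every young one. Notch2 fell from 89.5 ± 3.31 to 61.6 ± 5.17 CPM (a log2 fold change of -0.54 ± 0.058 with an adjusted p of 2.66e-07), and Ctnnb1, or beta-catenin, was not called (from 57.7 ± 1.38 to 61 ± 1.8 CPM).

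Among cytokine receptors 9 were higher and 9 lower of 46, close to the shares of all genes, and 5 were lower without old replicate 1. Il6st, the shared signalling chain gp130, fell from 11.1 ± 0.728 to 6.04 ± 0.567 CPM and Il6ra from 20.02 ± 0.361 to 12.3 ± 1.12 CPM, and Socs2, a feedback inhibitor, from 7.63 ± 0.139 to 4.35 ± 0.95 CPM. Ifngr1, the interferon gamma receptor, rose from 272 ± 6.87 to 347 ± 3.33 CPM (a log2 fold change of 0.35 ± 0.041 with an adjusted p of 1.12e-06), the opposite of interferon-stimulated genes. Of Toll-like receptor and innate sensor genes, 11 were higher and 8 lower of 30 tested (median log2 fold change -0.05; level shares 20.1% and 18.5%). Their median was 0.043 without old replicate 2, 0.011 without young replicate 3 and 0.003 without old replicate 3, and 5 were lower under DESeq2 and without young replicate 3, old replicate 1 or old replicate 3. The adaptor gene Myd88 had 74.7, 63.1 and 69.6 CPM in the young libraries and 114, 116 and 109 CPM in the old libraries (a log2 fold change of 0.71 ± 0.057 with an adjusted p of 3.67e-09), and Tlr6 rose from 1.93 ± 0.428 to 4.47 ± 0.316 CPM. The DNA sensor gene Cgas fell from 29.1 ± 0.572 to 22 ± 1.05 CPM and the co-receptor gene Cd14 from 70.9 ± 1.82 to 57.8 ± 1.72 CPM. Tlr4 was not called (from 11.7 ± 1.41 to 13.5 ± 1.41 CPM).

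Of immediate early genes, 24 were higher and 3 lower of 35 tested (median log2 fold change 0.29), and of AP-1 genes 4 of 7 were higher and 1 lower (median 0.19). Egr1 rose from 288 ± 5 to 459 ± 7.87 CPM, and Jun fell from 215 ± 7.24 to 193 ± 2.51 CPM. Tnf, the inflammatory cytokine, rose from 25.5 ± 1.52 to 45.1 ± 2.26 CPM, and Ccl2, a monocyte chemokine, fell from 39.6 ± 1.78 to 25.3 ± 1.46 CPM. Dusp6, a feedback phosphatase of ERK, rose from 56.2 ± 1.67 to 82.7 ± 5.62 CPM. Of the survival genes, Mcl1 rose from 69.4 ± 3.85 to 88.2 ± 1.35 CPM and Bcl2 fell from 30.3 ± 1.93 to 22.2 ± 1.14 CPM (a log2 fold change of -0.45 ± 0.074 with an adjusted p of 6.69e-05). Circadian genes went both ways, with Bhlhe40, Nfil3 and Per2 higher (0.95, 0.63 and 0.71) and the activator gene Bmal1 lower (-0.53). The sources used here do not give the time of day of sampling.

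Among solute carrier genes 55 were higher and 54 lower of 269 (20.4% and 20.1%), near the shares of all genes, 19.8% and 19.4%. Their level shares were 13.7% and 21.6%, and 28 were lower under DESeq2 and 35 without old replicate 3. Among ABC transporter genes 16 were lower and 7 higher of 41, and 8 were lower under DESeq2 or without young replicate 2, with a median of -0.27 against a trend of -0.19. Abcg2, the efflux pump of the side population of stem cells, was not called (from 46.1 ± 2.95 to 42.3 ± 2.33 CPM). Of imprinted genes, many of them kept active in HSCs, 6 of 18 tested were higher, among them Gatm, of creatine synthesis, from 320.5 ± 9.34 to 523 ± 19.6 CPM, and Igf2r, a growth factor scavenger, from 2.93 ± 0.359 to 5.68 ± 0.774 CPM, and 3 were lower.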

How the data were processed

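RNA of sorted bone marrow cells was read in 3 young and 3 old HSC libraries. The deposited table holds expected counts per gene: 56% of its non-zero values are whole numbers, and the sources used here do not say what made the others fractional. The authors used build mm10, with STAR 2.6.1d, edgeR 3.24.3, HTSeq 0.10.0 and Trim Galore 0.6.2, per the submitters' processing notes, which state no role or order. All 23317 rows were matched to GENCODE release 21 for mouse.

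Counts were rounded, filtered by edgeR's filterByExpr and tested with edgeR 4.0.16 (R 4.3.3, quasi-likelihood, TMM, limma 3.58.1) in 1 fit of 9 libraries with group as the only term, at an adjusted p below 0.05. The same fit was tested on simulated data. DESeq2 1.42.0, other filters, other scalings and left-out libraries were alternatives. The running median of log2 fold change on level used windows of 401 genes, and the level shares, chosen after seeing the data, average the shares called in each member's level quintile. A word is a stretch of 31 bases, called shared where another gene's transcripts hold it. Whether counting used strand is not stated, so reads of overlapping genes cannot be told apart, which touches 68 of 184 named genes.

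The members and the gene lists were chosen with earlier results of these data known. For each list the text may name up to 3 genes called higher and 3 lower with the smallest p, and the most abundant gene not called, besides a fixed set of well-known genes. Named outside that rule, after their values were seen, were Alg12, Atf6, Bag3, Canx, Cebpa, Cebpe, Cers2, Derl3, Dnajb1, Dnajc3, Ern1, Gfi1, Mpo, P4hb, Pdia6, Sec24d, Sptlc2 and Ssr1. Promoters are from RefSeq (GRCm38.p6). Genes on X and Y were tested and not described, and some other results are not reported here.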

Additional observations from a re-analysis of the deposited data

How the results depend on the processing

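The counts of 2712 higher and 2657 lower genes stayed within 1.5 times of these values under RLE size factors, no filter, a stricter filter of 5 CPM in 3 libraries, a fit of the 6 libraries alone, counts not rounded and the replicate block. DESeq2 called 1726 genes lower, and against a minimum fold of 1.2 edgeR called 866 higher and 1253 lower. Leaving out each library in turn gave 2447 to 2849 higher and 2023 to 2472 lower genes. Spearman's rho of log2 fold change with level was 0.252 under the stricter filter and 0.427 to 0.448 with a library left out, and the cause was not tested. Of 83 list medians 47 were above 0, and 1 to 6 changed sign when a library was left out, 10 under the stricter filter, and 20 when the running median on level was subtracted. Among the 184 named genes none reversed. With a library left out, 2 to 5 lost their call (Alg12, Bag3, Cdkn1a, Cxcr4, Dnajb1, Dpm3, Ezh2 and Hlf) and 0 to 2 gained one (Abcg2, Hsp90b1, Sirt7 and Tlr4). The replicate block ended the call of Hlf and changed no other call of a named gene, and 40 lost their call against the minimum fold of 1.2. Alternatives chosen after seeing the data (without sex chromosome genes, genes with shared words, or granule and immunoglobulin genes, thinned counts, and less the running median) kept the counts of calls between 2546 and 2749 higher and 2168 and 2700 lower, where they gave such counts.

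Libraries of the 2 ages share replicate numbers. Deviations of same-numbered libraries correlated at 0.104, 0.123 and 0.048, so the numbers do not establish pairs, although each library correlated best with its own number. With the replicate block, 2721 genes were higher and 2620 lower. With 3 libraries a group, an exact permutation test of 1 value cannot go below p = 0.1.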
